A study of Mus musculus with 20 samples.

Results

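Double-positive cells at day 28 of the conversion of XEN cells to iPS cells were barcodes with UMIs of genes from both lineages. They were cells of the 2 day 28 libraries with 2000 or more UMIs (counted RNA molecules), 2 or more UMIs of Pou5f1 and 2 or more UMIs of Gata4 and Gata6 summed. The rule found 717 such cells among the 5369 cells with 2000 or more UMIs in replicate 1 and 372 among 1898 in replicate 2, which makes 1089 of the 134279 cells of the whole series. They were compared, within each library, with Gata-only cells (2 or more Gata4 and Gata6 UMIs and no Pou5f1; 2171 and 790 cells) and with Pou5f1-only cells (2 or more Pou5f1 UMIs and no Gata4 or Gata6; 641 and 267 cells).

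Pou5f1, also called Oct4, is the transcription factor that marks the epiblast and the pluripotent cells derived from it, whereas Gata6 and Gata4 drive the primitive endoderm, the sister lineage in the blastocyst. XEN cells are stem cells of that extraembryonic endoderm. In the inner cell mass both programs are first expressed in the same cells and are then separated, with FGF signalling favouring endoderm, so a cell that reads out both is of interest in a conversion between the lineages.

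The cells came from the line 3F-4 XEN, which carries the cassette Col1A1TetO-OKSmCh/TetO-OKSmCh, the transactivator allele R26M2rtTA/M2rtTA and the reporter Oct4-GFPTg/Tg. In this line doxycycline switches on Oct4, Klf4, Sox2 and mCherry from the cassette through the ubiquitous transactivator. All cells of the XEN-to-iPS time course share these alleles, the Gata-only and Pou5f1-only cells included. Cells with mCherry had been sorted after doxycycline was added and were then grown on fibroblast feeders in serum and LIF with doxycycline, ascorbic acid and a GSK3β inhibitor. Before encapsulation at day 7, day 14 and day 28 they were sorted by SSEA-1 and Oct4-GFP and recombined in about equal fractions, so a share of cells in these libraries is not a share of the culture. The ES-to-iXEN cells used below for comparison came from iGata4-Gata6-Venus ES, with the genotype Col1A1TetO-Gata4/+; R26M2rtTA/+; Gata6H2B-Venus/+, in which doxycycline switches on Gata4 (Gata4-mCherry in the study's methods), after 9h, 24h or 48h of it. By the study's methods these cells grew on gelatin in serum and LIF with doxycycline. The 9h cells were sorted and recombined by a similar strategy, and the 24h and 48h cells were not sorted. Counts do not separate cassette RNA from RNA of the endogenous Pou5f1, Klf4 or Sox2, nor induced from endogenous Gata4. The 2 libraries of a condition are technical duplicates, so an error or p-value below measures only the spread between duplicates and not between cultures.

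Depth differed among the classes. The median cell held 22398 and 36180.5 UMIs among double-positive cells (replicates 1 and 2), 17807 and 27991 among Gata-only cells, and 31438 and 52504 among Pou5f1-only cells. At an equal depth of 10000 UMIs the median number of genes per cell was 2597 and 2639 in double-positive, 2597 and 2605 in Gata-only and 2460 and 2464.5 in Pou5f1-only cells. Cells among the highest 5% of doublet scores of their library made up 13.9% and 16.4% of double-positive cells, against 3.36% and 4.81% of Gata-only and 2.65% and 1.12% of Pou5f1-only cells. The part of droplets that held more than 1 cell was not tested beyond leaving these cells out. Mitochondrial UMIs made up 3.79% and 3.59% of the summed UMIs of double-positive cells, 3.49% and 3.54% of those of Gata-only cells and 2.95% and 2.96% of those of Pou5f1-only cells. The libraries shared 22 barcodes, none of them among double-positive cells, and the duplicate sums of double-positive cells differed by more than counting noise (chi-square per degree of freedom 26.6 over 13527 genes), and they remain technical duplicates. Feeder fibroblast markers were near 0: the 10 listed genes summed to 3.02 and 2.38 CPM (a gene's UMIs scaled to the total UMIs of its class and library) in double-positive cells, 8.42 and 2.57 in Gata-only and 5.21 and 5.69 in Pou5f1-only cells. Lum was at 0 in the double-positive cells of both libraries, and no double-positive cell had 5 or more UMIs of Col1a1, Col1a2 and Col3a1 summed. The 8 markers of 2-cell-like cells summed to 0.168 and 0 CPM in double-positive cells.

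The rule genes stood at the following levels. Pou5f1 stood at 166 and 153 CPM in double-positive cells and at 203 and 264 CPM in Pou5f1-only cells. Gata4 stood at 76.4 and 68.4 CPM against 115 and 110 CPM in Gata-only cells, and Gata6 at 132 and 141 CPM against 156 and 183 CPM. These 3 genes chose the cells, so their levels are a description without a test. Of the 717 and 372 cells, 571 and 317 had UMIs of both Gata4 and Gata6, 114 and 43 had Gata6 alone, and 32 and 12 had Gata4 alone. Pou5f1 is on chr17:35506018-35510772 and Gata4 on chr14:63198922-63271692 of GRCm38.

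The share of cells that met the rule was 13.4% (95% exact binomial interval 12.5% to 14.3%) and 19.6% (17.8% to 21.5%) at day 28, a mean of 16.5% ± 4.42 (SD, n = 2), and these intervals cover counting error only. At day 14 it was 1.78% and 4.78%, at day 7 it was 0.219% and 2.01%, and in uninduced XEN cells 0 of 6708 cells (3 counts of the total would be 0.0447%, and the exact upper limit is 0.055%) and 1 of 5796 cells met it. In XEN-iPS cells it was 0.554% in replicate 1 and 0 of 5742 cells in replicate 2 (0.0522% and 0.0642% by the same limits). The rule counts UMIs, so the share depends on depth. With each cell thinned to 10000 UMIs, 221 of 4527 and 90 of 1732 day 28 cells met it (4.88% and 5.20%), against 15.3% and 21.4% of the same cells unthinned. Cells just inside and just outside the threshold differed in their surroundings: on an axis from 0 (XEN) to 1 (ES), described next, cells with exactly 2 Pou5f1 UMIs had a median score of 0.389 and 0.247 (220 and 89 cells), and cells with 1 Pou5f1 UMI beside 2 or more Gata UMIs had 0.218 and 0.137 (535 and 179 cells). On the other side of the rule, cells with exactly 2 Gata UMIs scored 0.545 and 0.548 (139 and 28 cells), and cells with 1 Gata UMI beside 2 or more Pou5f1 UMIs scored 0.868 and 0.928 (225 and 80 cells).

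On a score built from 100 genes high in ES and 100 genes high in XEN cells, without the 3 rule genes and with each cell thinned to 2000 UMIs, double-positive cells lay between the other classes. Their median score was 0.469 in replicate 1 (quartiles 0.316 and 0.595) and 0.388 in replicate 2 (0.232 and 0.579). Gata-only cells had medians of 0.111 and 0.0818, and Pou5f1-only cells of 0.926 and 0.940. Of the double-positive cells, 605 (84.4%) and 273 (73.4%) scored from 0.2 to 0.8, against 24.3% and 15.8% of Gata-only and 10.3% and 7.12% of Pou5f1-only cells. A further 76 (10.6%) and 66 (17.7%) double-positive cells scored below 0.2, and 36 (5.02%) and 33 (8.87%) scored 0.8 or more. The limits cut through a continuous range: in replicate 1, 4.46% of double-positive cells fell in the 0.05 below and 6.00% in the 0.05 above the lower limit, and 2.37% and 2.23% around the upper one. The classes were chosen on Pou5f1, Gata4 and Gata6, which go along with the axis genes, so the order of the classes on the score is a description.

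**Figure D1:**
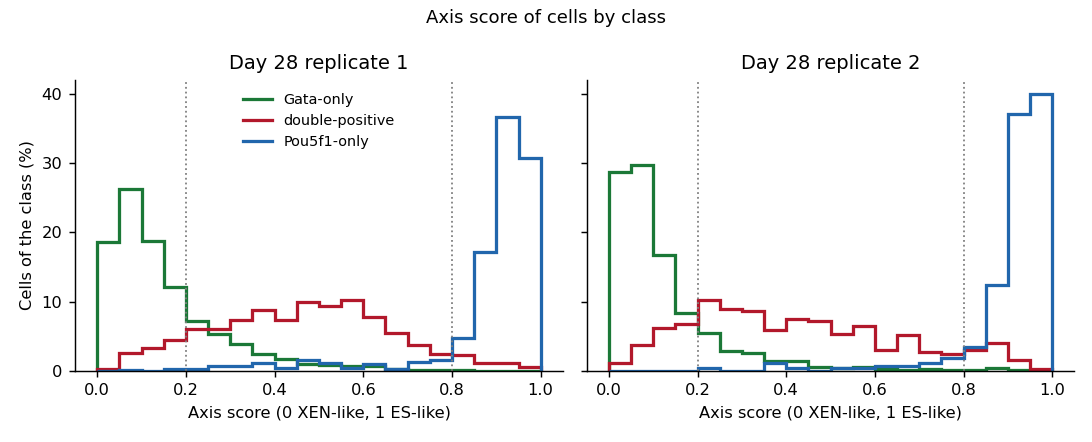
Share of cells (%, y axis) of each class by axis score (0 XEN-like to 1 ES-like, x axis, bins of 0.05) in the 2 day 28 libraries, with dotted lines at 0.2 and 0.8. Double-positive cells spread across the range, with medians of 0.469 and 0.388, while Gata-only cells gather near 0 and Pou5f1-only cells near 1.

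To compare the classes gene by gene, the UMIs of each class were summed per library and the 6 sums were fitted with edgeR's quasi-likelihood test, with the library as a term. A gene was called at a Benjamini-Hochberg adjusted p under 0.05 and a difference of at least 2-fold. The rule did not use the other genes, but a gene that goes along with Pou5f1 or with Gata4 and Gata6 differs between the classes through the way the cells were selected, so the calls describe what was selected with the rule genes. Over all 13451 genes tested, 11.6% were called higher and 4.94% lower in double-positive than in Gata-only cells, and 17.3% were called higher and 13.7% lower than in Pou5f1-only cells. In bulk sums of this kind, fewer cells with a transcript and less of it per cell cannot be told apart, and shares of cells with a UMI are therefore given for some genes.

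Most pluripotency genes lay between the levels of Gata-only and Pou5f1-only cells. Of the 30 core and naive pluripotency genes, 23 were called higher in double-positive than in Gata-only cells and none lower, with a median log2 fold change of 2.59 against 0.02 for all genes. Against Pou5f1-only cells 16 were called lower and none higher, with a median of −1.09 against −0.00 for all genes. In both libraries 27 of the 30 lay between the other classes, in either direction, so that Klf4, higher in Gata-only cells, is among them. The share of all genes tested that lay between the classes was not counted, so here and below such counts only describe the lists. Of the 9 tested genes of formative pluripotency, 5 were called higher than in Gata-only cells (Otx2, Pou3f1, Dnmt3a, Lef1 and Zic2) and 6 lower than in Pou5f1-only cells.

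The members of this group differed in where they lay between the classes. Dppa5a, an RNA-binding protein of pluripotent cells, stood at 4880 and 4470 CPM in double-positive cells, at 1390 and 821 CPM in Gata-only cells and at 4140 and 5210 CPM in Pou5f1-only cells. It was 4.12-fold above Gata-only cells (log2 fold change 2.04 ± 0.25 SE, edgeR adjusted p = 0.00165), and its difference from Pou5f1-only cells was −0.10 ± 0.24 (edgeR adjusted p = 0.747), a difference whose sign turned with the cells or libraries used. Zfp42, or Rex1, a zinc finger factor of naive pluripotency, stood at 173 and 197 CPM, between 15.4 and 24.1 CPM in Gata-only and 803 and 790 CPM in Pou5f1-only cells. Zfp42 was 9.17-fold above the former and 4.59-fold below the latter class (edgeR adjusted p = 3.09e-07 and 4.92e-07).

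Nanog, the homeobox factor that holds cells in naive pluripotency, stood at 21.9 and 26.8 CPM in double-positive cells, at 1.32 and 4.70 CPM in Gata-only cells and at 151 and 135 CPM in Pou5f1-only cells. Its level was 8.60-fold above Gata-only cells and 6.36-fold below Pou5f1-only cells (edgeR adjusted p = 0.00512 and 0.00234). These folds moved with the cells used. With cells of 10000 to 40000 UMIs Nanog was at log2 fold changes of 2.09 against Gata-only and −4.42 against Pou5f1-only cells, in place of 3.10 and −2.67, and without the highest 5% of doublet scores it was at −3.54 against Pou5f1-only cells. Nanog also came to 2.29 and 4.11 against Gata-only cells without Gata-only replicate 1 and replicate 2. Sox2, the partner of Pou5f1 on DNA, showed the same order at 32.9 and 43.9 CPM, against 2.13 and 4.45 CPM in Gata-only and 215 and 190 CPM in Pou5f1-only cells. Sox2 too was further from Pou5f1-only cells in the same 2 selections, at −4.28 and −3.50 in place of −2.51. Esrrb, an orphan nuclear receptor of the naive network, stood at 19.0 and 17.9 CPM, 9.00-fold above Gata-only and 3.08-fold below Pou5f1-only cells. Nanog is on chr6:122707489-122714633, Zfp42 on chr8:43295063-43306980 and Dppa5a on chr9:78367052-78368177 (GRCm38).

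Other members closer to the Pou5f1-only level were Crxos at 55.2 and 45.8 CPM (Pou5f1-only 86.9 and 62.7 CPM) and Tbx3, a T-box factor, at 102 and 78.8 CPM (119 and 90.4 CPM); neither was called against Pou5f1-only cells, and both were called higher than in Gata-only cells. Klf4 and Klf5, Krüppel-like factors of naive cells of which Klf4 is also on the cassette, went the other way. Klf4 stood at 156 and 196 CPM in double-positive, 185 and 258 CPM in Gata-only and 85.3 and 87.0 CPM in Pou5f1-only cells, and it passed the fold limit in neither comparison. Lin28a and Sall4 also passed in neither.

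Among genes with at least 50 CPM in double-positive cells of both libraries, the 5 most raised over Gata-only cells were Stmn2 (13.1-fold), Fam25c (12.8-fold), Utf1 (11.6-fold), Zfp42 (9.17-fold) and Dnmt3l (8.57-fold). Without the highest 5% of doublet scores Stmn2 came to a log2 fold change of 2.99 in place of 3.71, under Fam25c at 3.56, and without Gata-only replicate 1 and replicate 2 it came to 3.05 and 4.51. With cells of 10000 to 40000 UMIs Utf1 came to 2.94 in place of 3.53. Dnmt3l, the cofactor of the de novo DNA methyltransferases, stood at 59.4 and 53.3 CPM in double-positive cells, at 4.49 and 8.70 CPM in Gata-only and at 42.9 and 39.7 CPM in Pou5f1-only cells. Its level was above Pou5f1-only cells in both libraries, but the difference did not pass (log2 fold change 0.37 ± 0.24 SE, edgeR adjusted p = 0.225). Among genes with at least 50 CPM in Pou5f1-only cells of both libraries, the 5 furthest below that class were Dpys (7.00-fold), Trh (6.89-fold), Igfbp2 (6.82-fold), Tcea3 (6.64-fold) and Morc1 (6.57-fold). All 5 were also called higher than in Gata-only cells, although Trh and Igfbp2 no longer were when only cells of 10000 to 40000 UMIs were used (log2 fold changes of 1.74 and 0.83). Against Pou5f1-only cells all 5 then lay lower still, between −4.28 (Morc1) and −4.91 (Tcea3), and without the highest 5% of doublet scores they lay between −3.56 (Morc1) and −3.82 (Tcea3). High depth and high doublet scores thus moved with the level of these genes in double-positive cells, and their part in it was not tested further.

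Endoderm regulators and receptors had a median near the Gata-only level, with members on both sides of it. All 14 members tested were called higher in double-positive than in Pou5f1-only cells (median log2 fold change 4.14), whereas against Gata-only cells 2 were called higher (Cubn and Amn) and 2 lower (Foxa2 and Bmp2), with a median of −0.03. In both libraries 7 of the 14 stood above both other classes and 7 between them, and the shares of all genes in these places were not counted. Sox17, the SRY-box factor of endoderm, stood at 124 and 146 CPM, between 234 and 257 CPM in Gata-only and 9.40 and 4.32 CPM in Pou5f1-only cells. It was 18.1-fold above the latter (edgeR adjusted p = 2.75e-05), and its 1.89-fold lower level than in Gata-only cells missed the fold limit, which it passed with 3 or more UMIs of each, without Gata-only replicate 1 and without double-positive replicate 2. Foxa2, a forkhead factor of endoderm, stood at 49.5 and 58.4 CPM against 109 and 103 CPM in Gata-only cells, a 2.04-fold difference that fell under the 2-fold limit in 4 alternatives (log2 fold change −0.80 to −0.99), among them leaving out double-positive replicate 1.

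Dab2, an adaptor for endocytosis that is needed in endoderm, stood at 287 and 217 CPM in double-positive, 179 and 158 CPM in Gata-only and 15.4 and 5.90 CPM in Pou5f1-only cells. It was 22.8-fold above Pou5f1-only cells (edgeR adjusted p = 3.33e-06), and its 1.42-fold higher level than in Gata-only cells did not pass (edgeR adjusted p = 0.107). Without Pou5f1-only replicate 1 the log2 fold changes of Dab2 and Sox17 against that class were 5.17 and 4.96 in place of 4.51 and 4.18, and those of Foxq1, Igf1 and S100g were 5.30, 4.99 and 5.11 in place of 4.45, 4.36 and 4.32. Runx1, a runt-domain factor, stood at 115 and 82.6 CPM against 58.6 and 41.6 CPM in Gata-only cells, 1.90-fold and so under the limit. With the same minimum of 50 CPM in the higher class, Pth1r, Dab2, Foxq1, Igf1 and S100g were the 5 genes furthest above Pou5f1-only cells, between 20.0-fold and 23.3-fold, and none of them was called against Gata-only cells, though Pth1r was called lower without double-positive replicate 2. The S100g call against Pou5f1-only cells was lost without Gata-only replicate 1, and the small differences of Foxq1, Igf1 and S100g from Gata-only cells had no stable sign.

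Most genes of the basement membrane and parietal endoderm also lay between the classes. Of 16 tested, 15 were called higher and 1 lower (Phlda2) than in Pou5f1-only cells (median log2 fold change 3.38). Against Gata-only cells 6 were called lower and none higher (median −0.79). In both libraries 14 lay between the other classes, a count without the share of all genes beside it. Col4a1, a chain of type IV collagen, stood at 1010 and 1100 CPM, between 2130 and 2470 CPM in Gata-only and 71.8 and 37.9 CPM in Pou5f1-only cells. It was 2.27-fold below Gata-only cells (edgeR adjusted p = 0.0128), a call that was lost without double-positive replicate 1 and without Gata-only replicate 2. Sparc, a matrix glycoprotein, stood at 4230 and 4860 CPM against 5810 and 6750 CPM in Gata-only cells, a difference that did not pass (edgeR adjusted p = 0.24). Fst, or follistatin, an antagonist of activin, stood at 45.3 and 32.5 CPM, 4.15-fold below Gata-only and 10.9-fold above Pou5f1-only cells. Without Pou5f1-only replicate 1 the log2 fold changes of Sparc and Col4a1 against that class were 4.55 and 4.80 in place of 3.93 and 4.21.

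With that minimum, the 5 genes furthest below Gata-only cells were Tff1, Gkn2, Gkn1, DPCR1 and S100a6, of which Tff1 (a trefoil factor) and the gastrokines Gkn1 and Gkn2 are secreted proteins best known from the stomach lining. Gkn2 stood at 173 and 423 CPM in double-positive cells, at 964 and 2730 CPM in Gata-only cells and at 19.8 and 39.9 CPM in Pou5f1-only cells. It was 6.26-fold below Gata-only cells (log2 fold change −2.65 ± 0.13 SE, edgeR adjusted p = 2.53e-07) and 9.07-fold above Pou5f1-only cells. Replicate 2 held more Gkn2 than replicate 1 in all 3 classes, so the classes are compared within library. Tff1 came to −3.46 and −2.13 against Gata-only cells, in place of −2.76, without Gata-only replicate 1 and replicate 2.

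**Figure D2:**
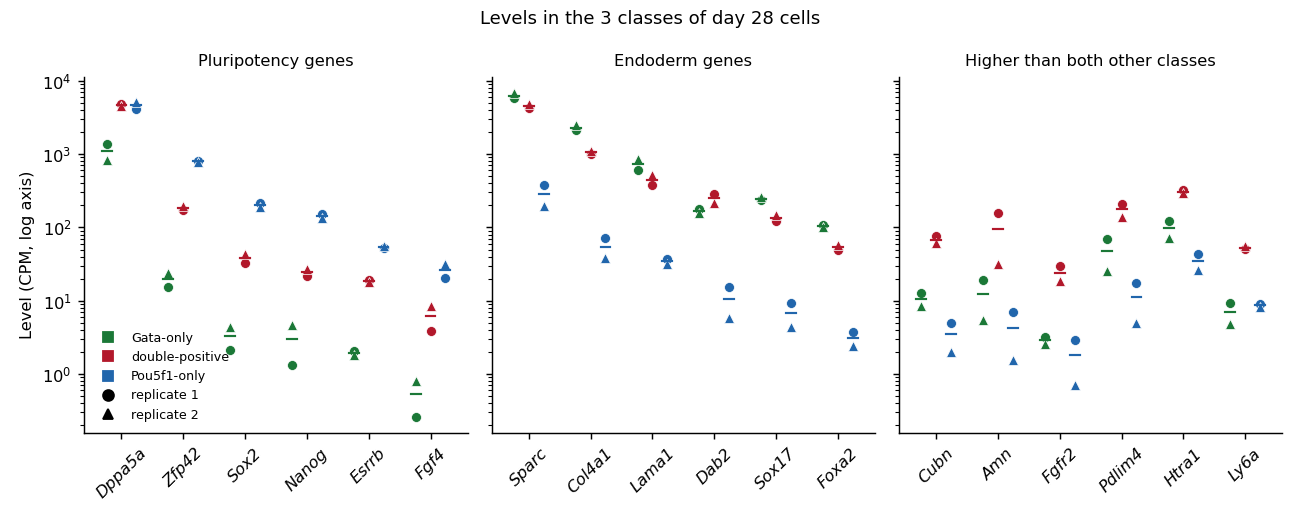
Level (CPM, log axis) of 6 pluripotency genes, 6 endoderm genes and 6 genes higher than in both other classes, in Gata-only (green), double-positive (red) and Pou5f1-only (blue) sums of each day 28 library (circle, replicate 1; triangle, replicate 2; bar, mean). Nanog and Sox2 lie between the classes, Dppa5a reaches the Pou5f1-only level, and Cubn, Fgfr2 and Ly6a are highest in double-positive cells. Dab2 lies above the Gata-only level in both libraries, a difference that was not called.

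Some genes were higher in double-positive cells than in either of the other classes. Of the genes tested, 197 (1.46%) were called higher against both and 32 (0.238%) were called lower against both. With the cells of the highest 5% of doublet scores left out, 264 genes were higher than both, 191 of them among the 197, and 70 were lower than both, all 32 included. Against Gata-only cells alone 2002 genes were then called, 1855 of them among the 2220 called with all cells. Among the genes of the lists, those higher than both were Cubn, Amn, Apoa4, Apom and Fgfr2, and those lower than both were Vim and Krt7.

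Cubn encodes cubilin, the receptor with which visceral endoderm and kidney tubules take up proteins. It stood at 76.0 and 60.6 CPM in double-positive cells, at 12.8 and 8.54 CPM in Gata-only cells and at 4.92 and 2.02 CPM in Pou5f1-only cells. Cubn was 6.25-fold above Gata-only cells (log2 fold change 2.64 ± 0.16 SE, edgeR adjusted p = 1.04e-06) and 18.6-fold above Pou5f1-only cells (4.22 ± 0.19, edgeR adjusted p = 5.04e-08). Amnionless (Amn), which brings cubilin to the cell surface, stood at 158 and 31.7 CPM, against 19.3 and 5.51 CPM in Gata-only and 7.04 and 1.58 CPM in Pou5f1-only cells. Its level was higher in replicate 1 in all 3 classes, it was 6.82-fold above Gata-only cells within library, and it was not called without the library term.

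Lrp2, or megalin, the receptor that works together with cubilin, stood at 65.5 and 51.5 CPM, against 40.3 and 24.4 CPM in Gata-only and 3.62 and 2.02 CPM in Pou5f1-only cells. Its 1.77-fold excess over Gata-only cells passed the p but not the fold limit (log2 fold change 0.83, edgeR adjusted p = 4.49e-04), and it passed both without the highest 5% of doublet scores (1.04) and without double-positive replicate 1. Cubn is on chr2:13276338-13491813, Amn on chr12:111271095-111276426, Lrp2 on chr2:69424340-69586065 and Dab2 on chr15:6299788-6440712 (GRCm38).

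Fgfr2, a receptor of the FGF signal that favours endoderm, stood at 29.7 and 18.5 CPM in double-positive cells, at 3.24 and 2.57 CPM in Gata-only cells and at 2.94 and 0.720 CPM in Pou5f1-only cells. It was 8.0-fold above Gata-only cells (log2 fold change 3.00 ± 0.24 SE, edgeR adjusted p = 8.76e-06) and 12.2-fold above Pou5f1-only cells (3.61 ± 0.27, edgeR adjusted p = 1.63e-06). Without the highest 5% of doublet scores the log2 fold changes of Fgfr2 were 3.26 and 3.85, and those of Cubn 2.89 and 4.41. Without Pou5f1-only replicate 1 Fgfr2 stood at 4.65 against that class. The other receptors followed 1 lineage or the other. Fgfr1 stood at 5.54 and 8.15 CPM, between 0.922 and 0.980 CPM in Gata-only and 22.1 and 26.5 CPM in Pou5f1-only cells, and was called in both comparisons. Fgfr3 and Fgfr4 were called higher than in Pou5f1-only cells, and Fgfr3 lower than in Gata-only cells, and Fgfrl1 was called lower than in Pou5f1-only cells. Fgf4, the ligand made by pluripotent cells, stood at 3.91 and 8.54 CPM, 11.6-fold above Gata-only and 4.66-fold below Pou5f1-only cells. Its log2 fold change against Pou5f1-only cells was −2.93 without the highest 5% of doublet scores and −3.71 with cells of 10000 to 40000 UMIs, in place of −2.22. Fgf3, the other ligand tested, was 2.03-fold below Gata-only and 2.12-fold above Pou5f1-only cells, at 4.81 and 2.25 CPM. Of 9 targets and inhibitors of the pathway, 4 were called higher than in Gata-only cells (Dusp4, Spry4, Etv4 and Etv5) and 4 lower than in Pou5f1-only cells (Dusp6, Spry4, Etv4 and Etv5). Among all genes tested, 11.6% were called higher than in Gata-only cells and 13.7% lower than in Pou5f1-only cells.

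The 10 genes with the largest excess over both classes were Cubn, Ly6a, Pdlim4, Ptpn18, Htra1, Echdc2, Npl, Coil, Marcks and Gjb5, taken from the 14 genes with at least 50 CPM in both libraries. Ly6a, or Sca-1, a surface antigen best known from blood stem cells, stood at 50.8 and 55.1 CPM against 9.27 and 4.78 CPM in Gata-only and 9.06 and 8.21 CPM in Pou5f1-only cells. It was 7.27-fold above the first and 5.85-fold above the second (edgeR adjusted p = 2.96e-05 and 2.23e-05), and at a log2 fold change of 1.93 in place of 2.55 over the second with cells of 10000 to 40000 UMIs. Pdlim4, a PDZ and LIM protein of the actin cytoskeleton, stood at 211 and 141 CPM against 69.2 and 25.7 CPM in Gata-only and 17.7 and 4.97 CPM in Pou5f1-only cells, 3.97-fold and 16.4-fold higher. The Pdlim4 call against Gata-only cells was lost without the library term.

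Htra1, a secreted serine protease, stood at 321 and 295 CPM, 3.18-fold above Gata-only cells (122 and 71.6 CPM) and 8.51-fold above Pou5f1-only cells (44.0 and 26.5 CPM). Pdlim4 and Htra1 had little RNA at the start of the time course: over all cells of a library, Pdlim4 was at 0 and 0 CPM and Htra1 at 0.0649 and 0.20 CPM in XEN, and Pdlim4 was at 0.761 and 0.667 CPM and Htra1 at 13.3 and 22.3 CPM in ES. Cubn by contrast was at 26.5 and 16.4 CPM in XEN and 0.127 and 0.109 CPM in ES. Marcks, a membrane-bound substrate of protein kinase C, stood at 96.6 and 92.2 CPM against 24.3 and 34.3 CPM in Gata-only and 31.9 and 37.8 CPM in Pou5f1-only cells. Gjb5, a gap junction connexin, stood at 127 and 122 CPM against 50.5 and 53.6 CPM and 25.8 and 33.8 CPM. Coil differed between the duplicates, at 126 and 260 CPM in double-positive cells, and its call against Gata-only cells was lost without double-positive replicate 2. Against Pou5f1-only cells Coil came to a log2 fold change of 2.79 in place of 2.18 without Pou5f1-only replicate 1.

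Vim, which encodes the intermediate filament vimentin, was the 1 gene lower than in both classes that had at least 50 CPM in both of them in each library. It stood at 50.7 and 39.2 CPM in double-positive cells against 186 and 149 CPM in Gata-only and 174 and 112 CPM in Pou5f1-only cells. Vim was thus 3.9-fold and 3.33-fold lower (edgeR adjusted p = 1.10e-06 and 5.07e-07). Without the highest 5% of doublet scores it lay lower still, at log2 fold changes of −2.56 and −2.33 in place of −1.96 and −1.74. Cdh1, or E-cadherin, the adhesion protein of epithelia, stood at 101 and 93.3 CPM, 4.83-fold above Gata-only cells (22.1 and 16.5 CPM, edgeR adjusted p = 2.01e-06). It was also above Pou5f1-only cells (45.1 and 52.3 CPM) in both libraries, by 1.89-fold and so under the fold limit (log2 fold change 0.91, edgeR adjusted p = 3.03e-04), which it passed without the highest 5% of doublet scores (1.04) and without Pou5f1-only replicate 2. Zeb1 and Snai1, repressors of E-cadherin, were both called lower than in Gata-only cells, at 4.92 and 4.69 CPM against 11.6 and 14.5 CPM for Zeb1 and at 30.6 and 25.2 CPM against 60.7 and 52.9 CPM for Snai1. Snai1 was at least 8-fold lower in Pou5f1-only than in Gata-only cells, and double-positive cells lay between them in both libraries. Like Cdh1, Snai1 was thus above its Pou5f1-only level. The keratins Krt8 and Krt18 stood near the level of Gata-only cells (1.45-fold and 1.55-fold lower, under the fold limit) and were 8.30-fold and 10.1-fold above Pou5f1-only cells. Of the 17 epithelial and mesenchymal genes tested, 4 were called higher and 3 lower than in Gata-only cells, and 6 higher and 5 lower than in Pou5f1-only cells. For all genes tested the shares were 11.6% and 4.94%, and 17.3% and 13.7%, in the same order.

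**Figure D3:**
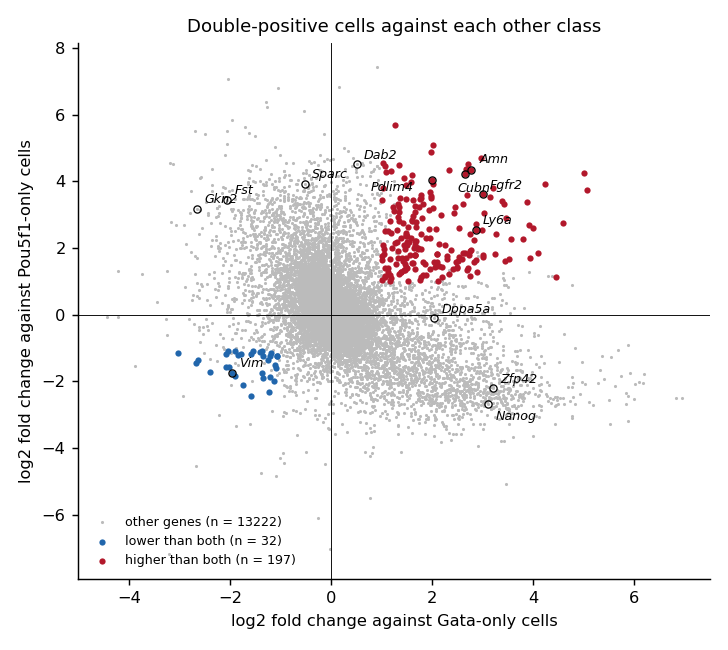
log2 fold change of double-positive against Gata-only cells (x axis) and against Pou5f1-only cells (y axis) for each of the 13451 genes tested, with the 197 genes called higher than both in red and the 32 called lower than both in blue. Cubn, Amn, Fgfr2, Ly6a and Pdlim4 lie in the upper right, Vim in the lower left, Nanog and Zfp42 in the lower right and Gkn2 and Fst in the upper left.

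Endoderm and pluripotency genes were read on a common scale, where 0 is the Gata-only and 100 the Pou5f1-only level of a gene in the same library and the position is linear in CPM. It was applied to genes called between Pou5f1-only and Gata-only cells (21.1% of genes called higher and 21.7% lower) with at least an 8-fold difference. The 216 endoderm-side genes had a median position of 51.9 in replicate 1 (quartiles 34.9 and 64.6) and 44.6 in replicate 2 (27.9 and 61.2). The 141 pluripotent-side genes had a median position of 19.0 (13.9 and 28.2) and 22.9 (19.1 and 29.9), and 94 and 83 of them lay below 25. The endoderm-side genes were thus further from the Gata-only level than the pluripotent-side genes in both libraries on the linear scale, and the order turned on a log scale. On log2(CPM + 1) the same endoderm-side genes had medians of 25.5 and 19.5, and the pluripotent-side genes had 49.8 and 53.5. The order of the sides thus depends on the scale.

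The pluripotent-side positions moved with the cells used. With only cells of 10000 to 40000 UMIs in all classes, where the same limits left 120 pluripotent-side and 173 endoderm-side genes, the medians averaged over the libraries were 9.55 and 48.9 in place of 20.9 and 48.3. Over the unchanged 141 pluripotent-side genes those cells gave medians of 11.4 and 8.57. Without the highest 5% of doublet scores these 141 genes had medians of 12.6 and 15.9, and the 216 endoderm-side genes had 51.1 and 41.1. Depth and doublet scores go together in double-positive cells and their parts were not separated. Among endoderm-side genes 12 and 14 had a position below 0, that is above the Gata-only level, and 7 did so in both libraries: Bend5, Creb3l2, Dab2, Foxq1, Lrp2, Nostrin and Runx1. No pluripotent-side gene lay below 0, and 1 lay above 100 in replicate 1.

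**Figure D4:**
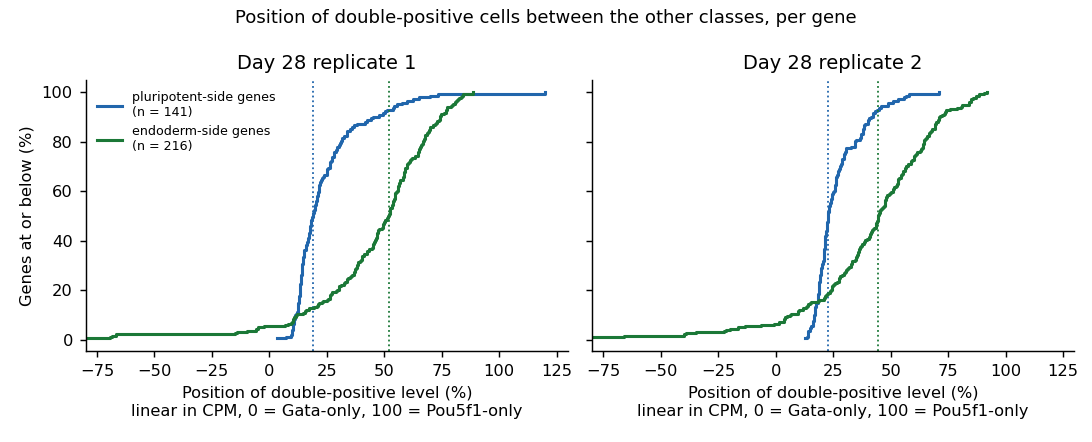
Cumulative share of genes (%, y axis) by position of the double-positive level (x axis, 0 the Gata-only and 100 the Pou5f1-only level, linear in CPM) for 141 pluripotent-side genes (blue) and 216 endoderm-side genes (green) in each day 28 library, with dotted lines at the medians (19.0 and 51.9, then 22.9 and 44.6). The blue curve rises over a narrow range and the green curve over a wide one, which starts below 0 and on its left runs off the axis, and on a log2 scale the order of the medians is the reverse (49.8 and 53.5 for blue, 25.5 and 19.5 for green).

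Signalling, chromatin and other groups are described by the same comparisons. Beside them, 11.6% of all genes tested were called higher and 4.94% lower than in Gata-only cells, and 17.3% and 13.7% than in Pou5f1-only cells. The groups are small, so a count of few genes in them is a description. Among 14 AP-1 and immediate early genes, which answer growth factors and stress, 8 were called higher than in Pou5f1-only cells and 4 lower than in Gata-only cells (Fosl2, Jun, Atf3 and Dusp1), with median log2 fold changes of 1.22 and −0.88. Jun stood at 240 and 204 CPM, between 514 and 439 CPM in Gata-only and 74.7 and 56.3 CPM in Pou5f1-only cells. Atf3, a stress-induced partner of Jun, stood at 109 and 102 CPM, 2.26-fold below Gata-only cells, a difference that came to under 2-fold with cells of 10000 to 40000 UMIs and without Gata-only replicate 2.

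Of 10 Nodal and BMP genes, 4 were called higher than in Gata-only cells (Nodal, Lefty1, Lefty2 and Bmp4) and 2 lower (Id2 and the BMP antagonist Nog), while against Pou5f1-only cells Nog was called higher and 4 lower (Nodal, Lefty2, Bmp4 and Id3). Lefty2, an inhibitor and target of Nodal, stood at 17.6 and 13.5 CPM, 18.6-fold above Gata-only and 2.74-fold below Pou5f1-only cells. In the DNA methylation group of 9 genes, Dnmt3l, Tet1 and Tet2 were called higher than in Gata-only cells and none lower, and Tet3 was called higher and Tet1 and Gadd45a lower than in Pou5f1-only cells. Tet2, a dioxygenase that oxidises methylcytosine, stood at 12.2 and 12 CPM, 5.5-fold above Gata-only cells (2.22 and 1.96 CPM), and its difference from Pou5f1-only cells (13.6 and 15 CPM) did not pass (edgeR adjusted p = 0.102). Tet1 stood at 20.8 and 26.8 CPM, 3.14-fold above Gata-only and 3.50-fold below Pou5f1-only cells. Of 11 Polycomb and other chromatin genes, 3 were called higher than in Gata-only cells (Jarid2, Mtf2 and Hmga2) and none lower, and 1 was called higher (Kdm6b) and 4 lower (Ezh2, Mtf2, Hmga1 and Kdm5b) than in Pou5f1-only cells. The shares for all genes tested were 11.6% and 4.94% against Gata-only cells and 17.3% and 13.7% against Pou5f1-only cells.

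All 6 germ cell genes tested were called higher than in Gata-only cells, with a median log2 fold change of 2.23, and 4 were called lower than in Pou5f1-only cells; Dazl, an RNA-binding protein of germ cells, stood at 24.6 and 12.9 CPM between 3.26 and 2.61 CPM and 81.9 and 49.8 CPM. Tfap2c, an AP-2 factor of trophoblast and germ cells, stood at 7.16 and 10.5 CPM, 13.0-fold above Gata-only and 5.89-fold below Pou5f1-only cells. Of 13 visceral endoderm genes, 3 were called higher than in Gata-only cells (Apoa4, Apom and Trf) and 3 lower (Afp, Ttr and Rbp4), and 8 were called higher and 1 lower (Trf) than in Pou5f1-only cells. All genes tested gave 11.6% and 4.94%, and 17.3% and 13.7%, in the same order. Apom, a lipoprotein component, stood at 26.2 and 24.0 CPM against 7.45 and 2.41 CPM in Gata-only and 8.0 and 4.75 CPM in Pou5f1-only cells, and its call against Pou5f1-only cells was lost without either Pou5f1-only replicate. Against Gata-only cells Apom was at 2.97 and 3.09, in place of 2.37, without double-positive and Gata-only replicate 1. None of the 14 S phase or 14 G2 and M phase genes was called against Gata-only cells by edgeR, and against Pou5f1-only cells 2 S phase genes (Rrm2 and Ung) were called lower. Xist, the RNA that coats the inactive X chromosome, stood at 38.1 and 53.0 CPM in double-positive, 29.0 and 20.0 CPM in Gata-only and 2.75 and 1.30 CPM in Pou5f1-only cells. It was 20.5-fold above Pou5f1-only cells (edgeR adjusted p = 4.92e-05; log2 fold change 4.36, which was 3.53 with cells of 10000 to 40000 UMIs, 5.00 without double-positive replicate 1 and 5.02 without Pou5f1-only replicate 1). It was under the fold limit against Gata-only cells (0.85), which it passed without the highest 5% of doublet scores (1.03) and without double-positive or Gata-only replicate 1. Over all cells of a library with 2000 or more UMIs, Xist was at 0.510 and 0.192 CPM in XEN.

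Other transcripts of both programs were looked for under the same cell barcodes. After thinning to 10000 UMIs (which left out 23 and 1 double-positive, 254 and 21 Gata-only and 24 and 19 Pou5f1-only cells), Zfp42 was found in 60.4% and 55.0% of double-positive cells. It was found in 11.6% and 11.1% of Gata-only cells, in 94.7% and 97.6% of Pou5f1-only cells, and in 1.85% and 1.25% of XEN cells, which should lack it. Without thinning the Zfp42 shares were 77.8% and 78.2% in double-positive, 19.3% and 23.8% in Gata-only and 95.3% and 95.1% in Pou5f1-only cells. Nanog, found in 0% and 0.083% of XEN cells, was rarer, in 8.21% and 11.6% of thinned double-positive cells (13.4% and 20.2% unthinned), against 1.04% and 1.04% of Gata-only and 65.8% and 64.9% of Pou5f1-only cells.

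Sox17 was found in 60.1% and 68.7% of thinned double-positive cells (78.8% and 91.4% unthinned), against 82.9% and 83.1% of Gata-only and 7.94% and 3.23% of Pou5f1-only cells, and in 0.0338% and 0.199% of ES cells. Fgfr2 was found in 23.5% and 18.6% of thinned double-positive cells (37.2% and 33.9% unthinned), against 3.03% and 1.95% of Gata-only cells and 3.73% and 0% of Pou5f1-only cells. Zfp42 and Sox17 were found under the same barcode in 33.7% of double-positive cells in each library (95% exact intervals 30.2% to 37.4% and 28.9% to 38.8%), against 9.29% and 7.28% of Gata-only and 5.51% and 2.82% of Pou5f1-only cells. Without the highest 5% of doublet scores the double-positive share was 32.2% and 32.3%. Zfp42 and Dab2 were found together in 46.5% and 39.6% of double-positive cells (46.8% and 38.4% without those scores). This pair was in 9.39% and 7.15% of Gata-only and 7.78% and 4.84% of Pou5f1-only cells. For these pairs and those below, high scores were left out of double-positive cells only, and the other classes were not filtered by score.

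Pairs with Nanog were rare. Nanog and Sox17 shared a barcode in 3.03% and 5.39% of double-positive cells, and in 1.01% and 2.58% without the highest 5% of doublet scores, against 0.835% and 0.910% of Gata-only and 2.11% and 1.21% of Pou5f1-only cells. Nanog and Sox2 did so in 5.33% and 7.55% (2.02% and 4.52% without those scores), against 54.8% of Pou5f1-only cells in each library. The shares of single genes and pairs count UMIs under a barcode, and free RNA and doublets add to them by an amount that was not measured. A pair share also depends on the shares of its single genes, and a link between the genes of a pair beyond that was not tested.

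Double-positive cells were not uniform along the axis. Vim, Cubn, Amn, Fgfr2, Ly6a and Pdlim4 were not among the axis genes. The sums of Cubn, Fgfr2, Ly6a and Vim over the cells below 0.2, from 0.2 to 0.8 and at 0.8 or more are given as a description. Cubn stood at 14.2 and 9.63 CPM on the endoderm side, 89.3 and 77.0 CPM in the middle and 6.76 and 29.5 CPM on the pluripotent side. Fgfr2 stood at 0.591 and 1.31 CPM, 34.7 and 22.9 CPM, and 12 and 14 CPM in the same order. Both were thus highest in the middle of the axis in each library.

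Ly6a was low on the endoderm side (3.54 and 4.82 CPM) and stood at 55.7 and 64.6 CPM in the middle and 55.6 and 58.9 CPM on the pluripotent side. Vim was lowest in the middle, at 38.2 and 31.2 CPM, against 96.9 and 64.8 CPM on the endoderm side and 131 and 53.3 CPM on the pluripotent side. The high doublet scores also changed along the axis, from 7.89% and 9.09% of cells on the endoderm side over 14.2% and 17.2% in the middle to 22.2% and 24.2% on the pluripotent side, and the median cell on the pluripotent side held 35005.5 and 72859 UMIs. Their part in the differences between these bands was not tested.

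Cells that met the same rule were present in 4 other conditions with at least 50 such cells in each library: day 14 (87 and 271 cells), 9h (427 and 337), 24h (1615 and 803) and 48h (1983 and 3889). Their sums were fitted together with those of day 28, and the fit pools the spread of all 10 sums. Between day 28 and day 14 double-positive cells 9 of 13648 genes (0.0659%) were called, all higher at day 28, while 1250 genes had an unadjusted p under 0.05. DESeq2 called 49 higher and 5 lower, and edgeR with no filter on low counts (19505 genes) called 304 higher and 72 lower. Named after their values were seen, the 9 were Meg3, Mylpf, Socs2, Gsta3, Zdbf2, Platr10, Rps27rt, Gm2694 and 1700013H16Rik. Meg3, a maternally expressed imprinted RNA, stood at 2.54 and 1.99 CPM at day 14 against 38.4 and 71.2 CPM at day 28. The count depended on the libraries: it was 0 without day 14 replicate 2, 50 higher and 1 lower without 48h replicate 1, and 67 higher and 4 lower without 48h replicate 2. It was 39 in all (29 higher and 10 lower) without day 14 replicate 1, 14 higher without either 24h replicate, 3 higher without either 9h replicate and 1 without either day 28 replicate.

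Of the genes above both classes at day 28, Cubn stood at 50.8 and 25.9 CPM in double-positive cells of day 14 (76.0 and 60.6 at day 28), Fgfr2 at 23.5 and 13.4 CPM (29.7 and 18.5) and Pdlim4 at 206 and 184 CPM (211 and 141). Nanog stood at 6.98 and 1.45 CPM in day 14 cells (21.9 and 26.8 at day 28), and Zfp42 at 78.0 and 34.8 CPM (173 and 197). Ly6a was spread widely at day 14, at 13.3 and 120 CPM. Neither Nanog nor Zfp42 was called between the days.

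Against the double-positive cells of the reverse conversion at 48h, 14.1% of 13648 genes were called higher and 9.86% lower in day 28 double-positive cells. The line, the culture and the sorting before encapsulation differ between these libraries as well as the condition. Their parts cannot be told apart. Dppa5a, Zfp42, Dab2 and Cubn were not called between them: Dab2 stood at 287 and 217 CPM at day 28 against 252 and 263 CPM at 48h, and Cubn at 76.0 and 60.6 CPM against 39.5 and 56.8 CPM (log2 fold change 0.36 ± 0.37 SE, edgeR adjusted p = 0.469). Cubn was at 0.600 and 0.856 CPM at 9h and 2.70 and 1.31 CPM at 24h. Fgfr2, at 18.9 and 9.24 CPM by 24h and 16.3 and 13.6 CPM at 48h, was not called either (0.55 ± 0.38, edgeR adjusted p = 0.277).

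Nanog was 8.66-fold higher at day 28 than at 48h, where it stood at 4.41 and 0.898 CPM (edgeR adjusted p = 0.0131). Of the 30 core and naive pluripotency genes 8 were called higher and 5 lower at day 28 (median log2 fold change 0.72 against −0.01 for all genes). Of all genes tested, 14.1% were called higher and 9.86% lower. Lin28a, an RNA-binding protein that blocks let-7 maturation, stood at 13.1 and 22.3 CPM at day 28 against 230 and 177 CPM at 48h, 12.8-fold lower at day 28 (edgeR adjusted p = 2.05e-05). Mid1, Rpl29, ERDR1 and RP24-286J21.7 were the other genes with the lowest level at day 28 relative to 48h. Rpl29 stood at 25.6 and 152 CPM against 2230 and 2040 CPM, and Mid1 at 0.895 and 0.706 CPM against 102 and 56.6 CPM. In day 14 cells, of the same line, Rpl29 (66.0 and 47.5 CPM) and Mid1 (1.27 and 0.181 CPM) were likewise low.

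Among AP-1 and immediate early genes, 11 of 14 were called higher at day 28 and none lower, with a median log2 fold change of 2.05. Cells of day 28 had been sorted and those of 48h had not, and the part of sorting in these genes was not tested. Atf3 stood at 109 and 102 CPM at day 28 against 0.723 and 0.501 CPM at 48h (log2 fold change 7.32 ± 0.43 SE, edgeR adjusted p = 1.67e-06), and Jun at 240 and 204 CPM against 10.6 and 1.62 CPM. Of 13 visceral endoderm genes 8 were called higher and none lower (median 2.24). Ttr, or transthyretin, a carrier of thyroid hormone and retinol, stood at 103 and 131 CPM at day 28 against 0.0380 and 0.0691 CPM at 48h. Gkn2 had no count at 48h, and its level at day 28 was at least 8120-fold higher when set against 3 counts over the 48h group. Gkn1 and Wfdc1, the other genes among the 5 highest at day 28 relative to 48h, were likewise near 0 at 48h, at 0.0761 and 0.0345 CPM and at 0.456 and 0.380 CPM. Of 11 Polycomb and other chromatin genes 5 were called lower at day 28 and none higher (median −0.95). Beside the groups of this paragraph, 14.1% of all genes tested were called higher and 9.86% lower at day 28.

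**Figure D5:**
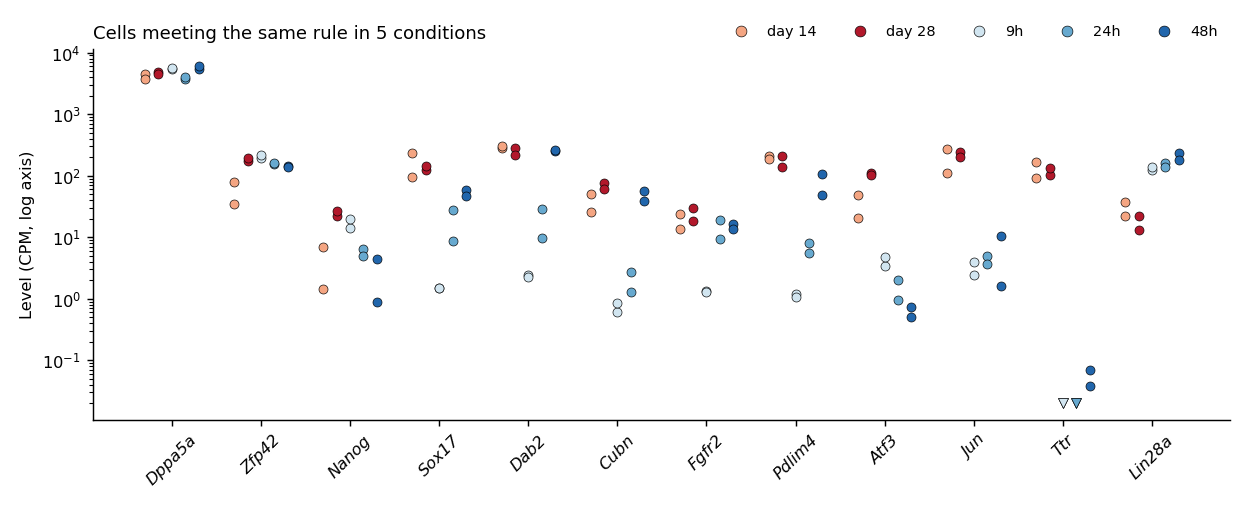
Level (CPM, log axis) of 12 genes in cells that met the same rule at day 14, day 28, 9h, 24h and 48h, 1 point per library, with values of 0 drawn as triangles at the bottom. Day 14 and day 28 lie near each other for Dab2, Pdlim4 and Ttr, Cubn and Fgfr2 reach similar levels at 48h and day 28, and Atf3, Jun and Ttr are higher at day 28 than at 48h while Lin28a is lower.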

How the data were processed

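Single-cell RNA-seq counts of 20 libraries (10 conditions, 2 technical duplicates each) were used, mainly the 2 of day 28. The authors prepared the libraries with 10x Genomics 3′ chemistry, ran SEQC against GRCm38, removed cells with more than 20% mitochondrial molecules and deposited the UMI counts as whole numbers, not normalized. A column of the authors' cluster labels was not used. Symbols listed more than once (8 to 12 per library) were summed. Of 22936 symbols, 22012 matched GENCODE vM21, which gave the coordinates.

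The cells and gene lists were chosen with earlier results of these data known. Classes were summed per library, normalized by TMM, filtered with filterByExpr and tested with edgeR 4.0.16 in R 4.3.3 (quasi-likelihood, robust, Benjamini-Hochberg over all genes tested but Pou5f1, Gata4 and Gata6), with the library as a term because the classes come from the same 2 libraries, which left 2 residual degrees of freedom. Double-positive sums of 5 conditions were fitted without a block (5 residual degrees of freedom). DESeq2 1.42.0 was an alternative. The others, described further on, were RLE, no factors, no filter, no block, other depths, and doublets or fibroblast cells left out. Further ones were 50 axis genes per side, a 4-fold limit for positions and each replicate left out. Another asked for 3 or more UMIs of each side of the rule, that is of Pou5f1 and of Gata4 and Gata6 summed. Genes named were those of the 22 lists, the 5 highest and 5 lowest called genes of each comparison with 50 CPM or more in the higher group in every library, and the 10 genes furthest above (or below) both classes, predicted genes skipped. Between Pou5f1-only and Gata-only cells these were Pla2g1b, Tcea3, Rasgrp2, Dpys and Trh, and Tff1, Gkn2, Cdh5, Rnase4 and Fst. Positions used genes with 20 CPM or more in the higher class. Scrublet in scanpy 1.11.5 marked too few cells to have worked, so the highest 5% of scores were left out instead. This alternative, that without normalization factors, the fit of only the 4 sums of day 28 and 48h and positions on log2(CPM + 1) were chosen after seeing the data. Fibroblast cells were those with 5 or more UMIs of Col1a1, Col1a2 and Col3a1 summed.

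On simulated sums with 13093 genes, 96% of 2-fold and 100% of 4-fold changes between double-positive and Gata-only cells were significant, 53% and 100% were called, and 3 calls were false. For day 28 against 48h (13238 genes) 43% and 96% were called, with 15 false calls. Apart from the planted changes, all simulated sums of a gene shared the same mean, without differences between libraries or classes. The real sums held such differences in many genes, so these rates and false calls need not hold for them. Figures were drawn with matplotlib 3.10.9.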

Additional observations from a re-analysis of the deposited data

How the results depend on the processing

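The counts of called genes were 2220 against Gata-only cells, 4166 against Pou5f1-only cells, 5761 between those 2 classes and 3275 for day 28 against 48h. Leaving out 1 replicate gave 1454 to 2287 genes against Gata-only cells, the lowest without double-positive replicate 2. The 197 genes higher than both classes became 117 to 215 with 1 replicate left out (lowest without double-positive replicate 2), and the 32 lower than both became 15 to 53 (15 without double-positive replicate 1, 20 without double-positive replicate 2, 53 without Gata-only replicate 1). The lower set was 62 with cells of 10000 to 40000 UMIs and 70 without the highest 5% of doublet scores, and the cause was not tested. Without the replicate block the counts were 1634, 3684 and 5522, with 123 genes higher and 14 lower than both classes, and with a replicate block for day 28 against 48h the count was 3283. The share of double-positive cells was 10.7% with 3 or more UMIs of each and 5.04% after thinning to 10000 UMIs, against 16.5%. The pluripotent-side median position was 9.55 with cells of 10000 to 40000 UMIs and 14.1 without the highest 5% of doublet scores, against 20.9, and the endoderm-side one was 42.5 with genes of 4-fold or larger difference against 48.3. On log2(CPM + 1) the same medians were 51.7 and 22.5, which turns their order. Among the differences of named genes, signs turned only where the main difference was not called. Against Gata-only cells these were Foxq1 (0.41, and −0.01 to 0.81 with 1 replicate left out), Igf1 (0.27, and −0.26 to 0.74) and S100g (−0.18, and −0.86 to 0.36, and 0.03 with cells of 10000 to 40000 UMIs). Against Pou5f1-only cells it was Dppa5a (−0.10, and −0.46 to 0.34, and 0.08 with cells of 10000 to 40000 UMIs). Of the 10 genes named as higher than both classes, 8 were still so with no filter (Ptpn18 and Coil were not), 9 without the block (Pdlim4 was not), 9 without double-positive replicate 2 (Coil was not) and 10 in the other settings. With an arm left at 1 sample, that sample is assumed to vary like the others.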

Other observations

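Of the 6 trophoblast genes tested, 2 were called higher than in Gata-only cells (Tfap2c and Ascl2) and 2 lower (Krt7 and Esx1), and 1 was called higher and 3 lower than in Pou5f1-only cells. In the same order, the shares of all genes tested were 11.6% and 4.94%, and 17.3% and 13.7%. Of 2 primitive streak genes tested, Eomes, a T-box factor, stood at 2.01 and 1.16 CPM in double-positive, 0.378 and 0.531 CPM in Gata-only and 9.69 and 3.09 CPM in Pou5f1-only cells. Among the 4 X inactivation genes tested, none was called against Gata-only cells by edgeR, and Xist and Jpx were called higher than in Pou5f1-only cells.

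The 4 Y-linked genes listed summed to 0.168 and 0.0642 CPM in double-positive cells, 4.63 and 0.286 CPM in Gata-only cells and 0 and 0 CPM in Pou5f1-only cells, and none was tested. Of the 4 feeder fibroblast genes tested, Col1a2 was called lower in double-positive than in Gata-only cells (0.727 and 0.257 against 3.50 and 0.245 CPM). It was lower in replicate 1 alone, where 5 Gata-only cells, and no double-positive cells, had 5 or more UMIs of Col1a1, Col1a2 and Col3a1 summed. Thy1 was called lower than in Pou5f1-only cells (0.335 and 0.642 against 1.78 and 4.03 CPM).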
